A study of Homo sapiens with 24 samples.

Results

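The effect of IGF2BP1 knockdown on mRNA decay was examined in HepG2, an established human liver cancer line, from 12 of the 24 libraries of the series. The members were chosen by their labels: 6 siControl and 6 siIGF2BP1 libraries, with 2 replicates at each of 0, 3 and 6 h of actinomycin D. siControl cells received the AllStars non-targeting siRNA and siIGF2BP1 cells received a commercial siRNA against IGF2BP1. Both were transient transfections of wild-type cells, re-seeded onto smaller plates, and actinomycin D (5 µg per ml), which blocks transcription, was added 48 h later for the stated time before collection. ERCC synthetic RNA was added in proportion to total RNA, and polyadenylated RNA was sequenced. The sources do not say whether the 2 replicates of a group came from separate transfections, so that p-values measure the spread between these libraries. The siIGF2BP2 and siIGF2BP3 libraries (6 each, treated alike) helped to estimate that spread and served as a further comparison.

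IGF2BP1 is an oncofetal RNA-binding protein with RRM and KH domains that is silent in most adult tissues and active again in many tumours, liver cancer among them. It binds coding regions and 3' UTRs in cytoplasmic granules, is known as a reader of m6A, and is best known for shielding bound mRNAs such as MYC and ACTB from nucleases or translation. In this design, a transcript shielded by IGF2BP1 would be lost faster after its knockdown, and a transcript destabilised by it would be lost more slowly.

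Depth was 37210275 to 74252042 gene reads and 52902 to 119088 ERCC reads in the 12 libraries. Hepatocyte-like markers were abundant (AFP at 11610 to 17960 CPM and HNF4A at 252 to 399.7 CPM, CPM being counts scaled to the same total of gene reads in each library), while PTPRC (blood), COL1A2 and DCN (fibroblast) were at 0 in every library and the endothelial marker PECAM1 was at 0.486 to 1.37 CPM. By chi-square the 2 siControl 6 h libraries differed from each other more than any other pair, with 10.2 per degree of freedom against 3.41 to 5.54 in the others. By correlation of log2 CPM the siIGF2BP1 6 h pair was lowest, at 0.9918, beside 0.9933 for siControl 6 h.

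The targeted transcript was measured first. IGF2BP1 (ENSG00000159217.9, hg38 chromosome 17, 48997385 to 49056145, plus strand) stood at 620 and 632 CPM in the siControl libraries at 0 h, 712 and 727 CPM at 3 h and 721 and 737 CPM at 6 h, with CPM scaled by TMM, which sets the typical gene to no change. In siIGF2BP1 it was at 130.3 and 134 CPM at 0 h, 121 and 116 CPM at 3 h, and 113 and 119 CPM at 6 h. The groups were far apart at each time, and the mean log2 difference was -2.50 (SE 0.0189, adjusted p = 2.44e-46 in edgeR). In bulk RNA, a partial loss in every cell and a full loss in some cells cannot be told apart. Of its paralogues, IGF2BP3 was 0.24 higher on the log2 scale (SE 0.0238, adjusted p = 7.99e-11) and IGF2BP2 0.09 higher (SE 0.0215, adjusted p = 0.00103).

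The main comparison asked which transcripts were lost faster or more slowly without IGF2BP1. For each gene the log2 change from 0 to 6 h in siControl was subtracted from that in siIGF2BP1, so that a negative difference is faster loss, relative to the typical gene, in the knockdown. At an adjusted p under 0.05 (edgeR quasi-likelihood test, Benjamini-Hochberg over all genes), 66 of 13136 genes differed (0.502%). Of these, 28 were lost more slowly (0.213%) and 38 faster (0.289%). Scaled by library size, 45 were slower and 36 faster. Without siControl 6 h replicate 1 the split was 20 and 38, and without replicate 2 it was 52 and 39. The differences were small: their median was 0.32 log2 among the slower genes and -0.37 among the faster ones, and 3 slower and 7 faster genes differed by at least 0.5 log2. The median over all genes was -0.01 and the middle 50% of genes lay between -0.10 and 0.10. The plot of difference against level shows that the called genes were among the better expressed, with median levels of 62.0 CPM (slower) and 84.7 CPM (faster) against 19.1 CPM over all genes.

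**Figure D1:**
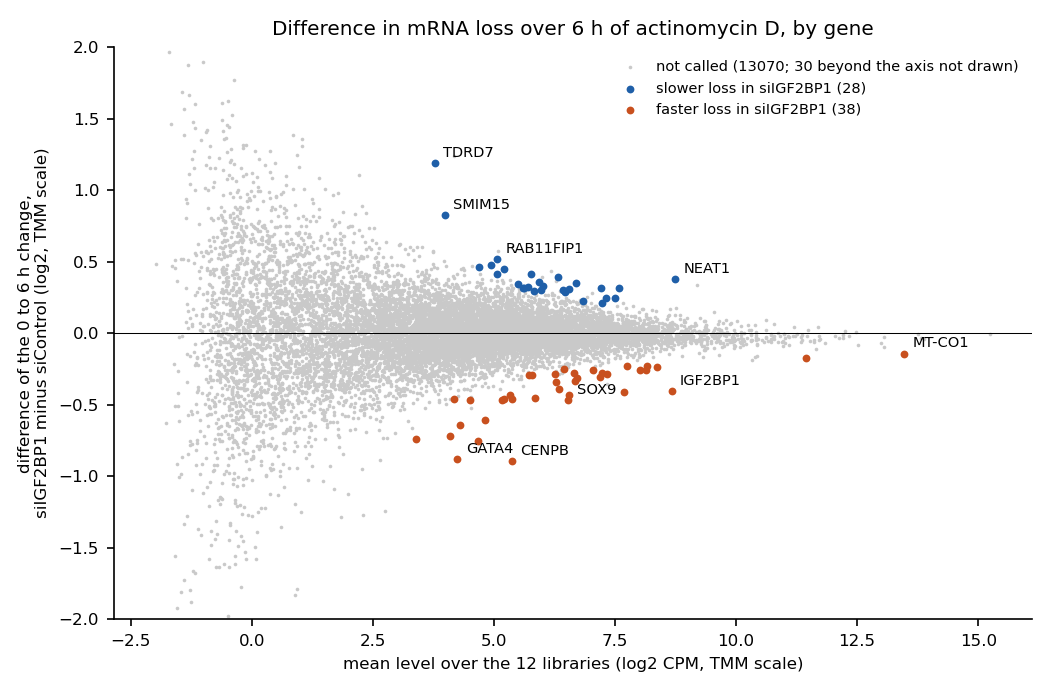
Each point is a gene: the x axis is its mean level over the 12 libraries (log2 CPM, TMM scale) and the y axis the difference of its 0 to 6 h change, siIGF2BP1 minus siControl (log2). The 28 genes called slower (blue) lie between 0.21 and 1.19 and the 38 called faster (orange) between -0.89 and -0.14, and the spread of the uncalled genes (grey) widens toward low levels.

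CENPB, which encodes the protein that binds the CENP-B box of centromeric satellite DNA, had the largest negative difference among the genes called. The gene is on chromosome 20 (3783851 to 3786740, minus strand). On the ERCC scale, which sets each library by its spike-in reads, CENPB mRNA at 6 h was at 22.2% and 17.6% of its 0 h mean in siControl and at 13.2% and 11.4% in siIGF2BP1. The 4 values did not overlap between the conditions, and the relative log2 difference was -0.89 (SE 0.0951, adjusted p = 3.78e-07). Most of it was present after 3 h, when 49.8% and 49.6% were left in siControl and 34.9% and 29.2% in siIGF2BP1. Its level before the drug was lower as well, at 51.0 and 49.7 CPM against 79.7 and 82.8 CPM. CENPB and the other genes named for their large differences were chosen in these same libraries, so that non-overlap of their replicates is a description.

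GATA4 (chromosome 8, 11676959 to 11760002), an endodermal and cardiac zinc finger factor, fell to 5.29% and 5.33% in siControl and to 3.96% and 2.66% in siIGF2BP1 by 6 h, a relative difference of -0.88 (SE 0.171, adjusted p = 0.006). The homeobox factor MSX1 stood at 30.7% and 28.0% in siControl and at 20.0% in both siIGF2BP1 libraries, a difference of -0.74 (adjusted p = 0.00916). SOX9, a factor of liver progenitor and biliary cells, was short lived, with 2.50% and 1.98% left in siControl and 1.78% and 1.92% in siIGF2BP1. Both siIGF2BP1 libraries lay just below both siControl libraries for SOX9, and the relative difference was -0.47 (SE 0.0971, adjusted p = 0.0109).

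The other genes with the largest negative differences have varied roles. UBE2G1, a ubiquitin-conjugating enzyme, was at 51.5% and 53.2% in siControl and 50.8% and 51.9% in siIGF2BP1 at 3 h, so that the conditions were close. At 6 h it was at 21.1% and 19.9% against 15.4% and 15.3%, and the 0 to 6 h difference was -0.61 (adjusted p = 0.00164). TLNRD1, an actin-bundling protein, was at 26.1% and 21.4% against 16.5% and 16.3% (difference -0.72, adjusted p = 0.00505). MID1IP1, which promotes fatty acid synthesis through acetyl-CoA carboxylase, was at 14.6% and 14.5% against 11.4% and 10.0% (difference -0.64, adjusted p = 0.00607). In each of these genes both siIGF2BP1 libraries lay below both siControl libraries at 6 h. Their choice by this difference makes that likely, and the share of all genes that separate so was not counted. PPP6C, the catalytic subunit of a serine/threonine phosphatase, and SPART, a protein of endosomes and lipid droplets, were longer lived and both differed by -0.47 (adjusted p = 0.0165 and 0.0144).

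IGF2BP1 mRNA itself was among the 38. It was left at 65.8% and 61.8% in siControl and at 54.1% and 55.9% in siIGF2BP1 after 6 h, and its relative difference was -0.41 (SE 0.0445, adjusted p = 3.82e-07). This transcript is the target of the siRNA, and the part of siRNA cleavage in its loss was not tested. IGF2BP2 and IGF2BP3 differed by -0.04 (SE 0.0526) and 0.04 (SE 0.0580), neither past the threshold.

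**Figure D2:**
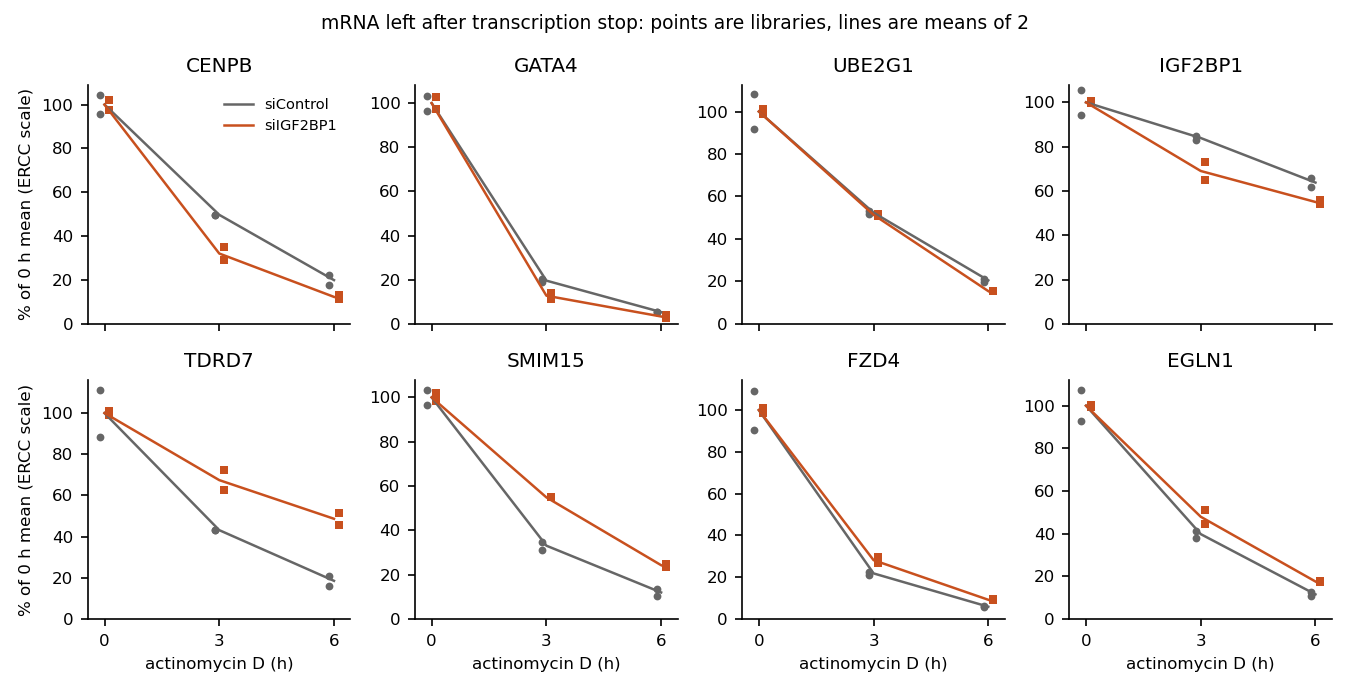
Level of 8 named mRNAs as a percentage of the 0 h mean of the same condition (y axis, ERCC scale) against hours of actinomycin D (x axis), with points for single libraries and lines for the mean of 2, siControl in grey and siIGF2BP1 in orange. CENPB, GATA4, UBE2G1 and IGF2BP1 ended lower in siIGF2BP1, with CENPB at 12.3% against 19.9%, and TDRD7, SMIM15, FZD4 and EGLN1 ended higher.

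Among the genes lost more slowly, TDRD7 (chromosome 9, 97412096 to 97496125), an interferon-inducible Tudor domain protein of RNA granules, had the largest difference. In siControl 16.2% and 20.9% of it was left at 6 h, and in siIGF2BP1 51.6% and 45.8%, a relative difference of 1.19 (SE 0.170, adjusted p = 9.16e-05). SMIM15, a small membrane protein of poorly known function, followed with 13.5% and 10.5% against 25% and 23.7% (difference 0.83, SE 0.135, adjusted p = 0.000841). Both were also higher before the drug: SMIM15 was at 15.0 and 16.0 CPM in siControl and at 32.1 and 34.0 CPM in siIGF2BP1 at 0 h. RAB11FIP1, a Rab11 effector of recycling endosomes, was left at 22.1% and 17.6% against 32.9% and 32.3% (difference 0.52, adjusted p = 0.00281).

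DIMT1, a methyltransferase of small-subunit ribosomal RNA, stood at 32.6% and 32.9% in siControl and at 53.1% and 51.5% in siIGF2BP1 (difference 0.48, adjusted p = 0.0228). CSTF2, a subunit of the cleavage stimulation factor that acts in mRNA 3' end formation, was at 46.2% and 40.5% against 66.6% and 65.1% (difference 0.42, adjusted p = 0.0293). EXO1, an exonuclease of mismatch repair, was at 17.1% and 16.8% against 26.5% and 27.0% (difference 0.46, adjusted p = 0.0245). In these genes the conditions did not overlap at 6 h. That is a description, since the genes were chosen in these libraries. On the ERCC scale the median difference over all genes was itself 0.187, toward higher values in siIGF2BP1. Gene reads as a whole separated in the same way at 6 h (70.7% and 65.9% against 77.7% and 76.9%). The share of all genes that do so was not counted, so that the separation is not particular to these genes. FZD4, a Wnt receptor, was short lived, at 6.19% and 5.64% against 9.06% and 9.41% (difference 0.44, adjusted p = 0.0300). EGLN1, the oxygen-sensing prolyl hydroxylase of HIF, was at 12.5% and 10.7% against 17.5% and 17.7% (difference 0.41, adjusted p = 0.00651). MRPL50, a protein of the mitochondrial large ribosomal subunit, was at 28.3% and 26.9% against 41.2% and 42.0% (difference 0.39, adjusted p = 0.00164).

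NEAT1, the long noncoding RNA that builds paraspeckles, rose during the treatment. It went to 331% and 332% of its 0 h mean at 3 h in siControl and to 451% and 438% in siIGF2BP1, and was at 233% and 222% against 336% and 341% at 6 h. Its difference of 0.38 (SE 0.0512, adjusted p = 3.28e-05) was thus a larger rise in the knockdown, and 0.35 of it fell in the first 3 h.

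The spike-in scale gave another split of slower and faster genes. Gene reads per ERCC read at 6 h were 70.7% and 65.9% of the 0 h mean in siControl and 77.7% and 76.9% in siIGF2BP1, and the 0 h siControl libraries themselves stood at 107% and 93.3% of their mean. On this scale the median difference over all genes was 0.187, and 86 genes were called (0.655%), 83 of them slower (0.632%) and 3 faster (0.0228%). Of the 28 genes slower on the relative scale, 26 were also past the threshold here, and of the 38 faster ones 1 was (CENPB, difference -0.70, adjusted p = 0.00123). MT-ND1 and MT-CO1 were the 2 faster genes whose sign turned (0.02 and 0.05 on the ERCC scale, -0.18 and -0.14 on the relative scale). The ERCC count rested on single libraries, with 1588 genes without siControl 0 h replicate 2 and 11 without siControl 0 h replicate 1.

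The early and late windows of the time course were also compared. Over 0 to 3 h, 11 genes passed the threshold (0.0837%), 2 slower (0.0152%) and 9 faster (0.0685%), CENPB (-0.71, adjusted p = 6.93e-06) among the faster ones. The split turned to 8 slower and 5 faster by library size, and DESeq2 gave 13 of each. Over 3 to 6 h no gene passed in edgeR, and DESeq2 called 6 genes. An unadjusted p under 0.05 was reached in edgeR by 912 of 13136 genes, where a share of 0.05 would be reached with no difference at all. The 38 faster genes had a median of -0.19 in the first window and -0.14 in the last, and the 28 slower genes 0.15 and 0.18. Since these genes were chosen on the sum of both windows, these medians are a description. UBE2G1 (-0.10, then -0.50) had most of its difference in the last 3 h, and NEAT1 (0.35, then 0.03) and IGF2BP1 (-0.36, then -0.05) in the first.

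The same change in siIGF2BP1 was then set against the mean of siIGF2BP2 and siIGF2BP3, a comparison that holds no siControl library but shares the siIGF2BP1 libraries. It called 88 genes (0.67%), 28 slower and 60 faster, and 24 and 91 by library size. The 38 faster genes had a median of -0.34 there, beside -0.37 against siControl, and the 28 slower genes 0.14, beside 0.32. The median of all genes was 0.01 there. The shared siIGF2BP1 libraries and the choice of these genes fix part of the sign and size, so that these medians are a description. For CENPB the value was -0.91 (adjusted p = 9.56e-09), for SPART -0.61 (7.21e-05), for UBE2G1 -0.60 (0.000231), for SOX9 -0.53 (0.000406) and for PPP6C -0.44 (0.00734). GATA4 (-0.59, adjusted p = 0.0793), TLNRD1 (-0.40, 0.170), MID1IP1 (-0.35, 0.201) and MSX1 (-0.29, 0.507) did not pass there.

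The 3 genes with the largest positive differences were close to 0 in that comparison. TDRD7 was at 0.13 (adjusted p = 0.859), SMIM15 at 0.07 (0.909) and RAB11FIP1 at 0.01 (0.989). For TDRD7, 42.4 ± 1.72% was left at 6 h in siIGF2BP2 and 47.4 ± 2.46% in siIGF2BP3, beside 48.7 ± 4.14% in siIGF2BP1 and 18.6 ± 3.29% in siControl (SD, n = 2 each, ERCC scale), so that siControl was the condition that stood apart. DIMT1 (0.46, adjusted p = 0.0073), FZD4 (0.46, 0.00443) and NEAT1 (0.35, 6.61e-06) passed the threshold also against the other knockdowns. EXO1 (0.24), CSTF2 (0.21), EGLN1 (0.19) and MRPL50 (0.19) lay between and did not pass. The plot of changes by condition shows these patterns for 19 genes.

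**Figure D3:**
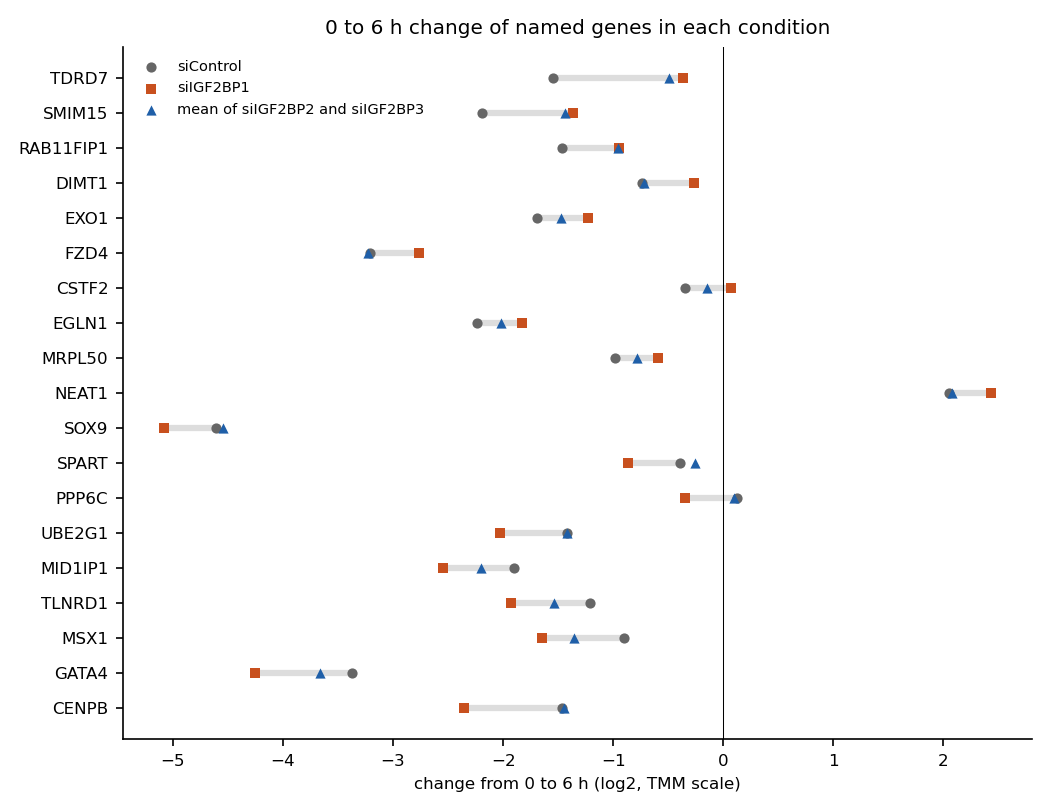
Change from 0 to 6 h (x axis, log2, TMM scale) of 10 genes with the largest positive and 9 with the largest negative differences (y axis), in siControl (grey circles), siIGF2BP1 (orange squares) and the mean of siIGF2BP2 and siIGF2BP3 (blue triangles). For TDRD7, SMIM15 and RAB11FIP1 the blue triangle lies next to the orange square, and for CENPB and UBE2G1 next to the grey circle.

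Before the drug, 2093 genes already differed between siIGF2BP1 and siControl (15.9%). The 0 h difference had a median of -0.18 in the 38 faster genes and of 0.13 in the 28 slower genes, beside 0.01 over all genes. The 0 h libraries enter both measures, with opposite sign in the decay difference. In the faster genes the 0 h difference ranged from -2.24 (IGF2BP1) to 0.59 (ZNF91, a zinc finger gene named after its values were seen), and in the slower genes from -0.09 to 1.42.

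mRNAs that IGF2BP1 is known for were examined next. A list of 32 published clients held 28 tested genes, with a median difference of -0.01, equal to that of all genes. Of these, 0 were called in either direction, beside 0.502% of all genes, a background at which no call is likely among 28 genes whatever their decay. ACTB, the zipcode-containing beta-actin mRNA, differed by -0.03 (SE 0.03) and MYC by -0.04 (SE 0.15). Among clients at a mean of 5 CPM or more, the lowest values were -0.16 for IGF2 (SE 0.06) and -0.11 for HMGA1 (SE 0.04), and the highest were 0.42 for CCN1 (SE 0.33) and 0.22 for BTRC (SE 0.11). The larger values of SNAI2 (-1.10, SE 1.60) and LEF1 (0.66, SE 0.51) came from genes at 1 CPM or less.

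The 9 genes that the study followed by other assays, or that make or act on m7G, were likewise not called. With 0.502% of all genes called, that is likely for 9 genes whatever their decay. The METTL1 cofactor WDR4 differed by 0.03, METTL1 by -0.22 (SE 0.157), and the exosome subunit EXOSC2 by 0.10 (SE 0.0798). HUWE1 (0.07), CYRIB (0.08), ZDHHC9 (0.10), BPNT2 (-0.06) and NDRG1 (-0.07) all lay within 2 SE of 0. The study picked most of these genes itself, and whether it used these libraries to do so is not given in the sources used here, so that the list is not taken as independent evidence.

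Gene classes were compared by the median difference of their tested members, on the relative scale, with the number called. With 0.502% of all genes called, 0 calls are likely in most lists whatever their decay. Of 54 lists, 37 held no called gene, and 20 of the 66 called genes (30.3%) belonged to any list, beside 2231 of the 13136 genes tested (17.0%). The lists were chosen with earlier results of these data known, and called genes were better expressed than all genes. These shares are therefore a description. The list medians ran from -0.09 to 0.29, and 8 lists lay more than 0.05 from the median of all genes, 5 above it and 3 below. Since single libraries moved several of them, each is given with its shift from the median of all genes where leaving out 1 library changed it by over 1.5 times. Over all genes 48.1% of differences were above 0.

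Lysine methyltransferases and demethylases had a median of 0.07 with 69.6% of 56 tested members above 0 and 0 called. The abundant KDM1A was at 0.04 and KMT2D at 0.07. The median deviation of this list in single libraries was -0.02 and -0.01 in siControl at 6 h and 0.04 and 0.03 in siIGF2BP1. At 6 h replicates were thus closer to each other than to the other condition. At 0 h this did not hold, with 0.026 and -0.004 in siControl and -0.006 and -0.017 in siIGF2BP1. Its shift of 0.07 became 0.03 without siControl 6 h replicate 2. RNA decay machinery (57 tested, 0 called) had a median of 0.05 with 68.4% above 0, with the CCR4-NOT scaffold CNOT1 at 0.15 (adjusted p = 0.121) and the nonsense-mediated decay kinase SMG1 at 0.06. Ribosome biogenesis factors (68 tested, 0 called) had a median of 0.05 with 64.7% above 0, with nucleolin (NCL) at 0.04 and NPM1 at -0.02. Against the other knockdowns these 3 lists had medians of 0.02 each, beside 0.01 over all genes.

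Metallothioneins, small metal-binding proteins, had the highest median, 0.29, over 5 of 9 genes that passed the filter, with 0 called. MT1G was at 0.29 (SE 0.14), MT1F at 0.59 (SE 0.29), MT1X at 0.58 (SE 0.40) and MT2A at 0.05, and 4 of the 5 were above 0. These genes are near-identical copies at low levels, so that reads shared between them are uncertain, and their median difference in level at 0 h was -0.32. The shift of 0.30 became 0.16 without siControl 0 h replicate 1, 0.18 without siIGF2BP1 0 h replicate 1 and 0.06 when the filter was raised to 5 CPM. NF-kB feedback genes and chemokines (18 tested) had a median of 0.05, although their 1 called member, the feedback inhibitor TNIP1, was lost faster (-0.29, adjusted p = 0.0284). The sign of this list was not stable: its shift of 0.05 became -0.04 without siControl 6 h replicate 2, -0.01 without replicate 1 of siIGF2BP1 at 0 h or at 6 h, and 0.11 without siControl 6 h replicate 1, and the difference of per-library medians was 0.01 with an SE of 0.0718.

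Selenoproteins, which incorporate selenocysteine, had a median of -0.09 with 22.7% of 22 above 0 and 0 called. The abundant SELENOP and GPX4 were at -0.10 and -0.02, and SEPHS2, which makes the selenium donor, at -0.23 (adjusted p = 0.0554). The shift of -0.08 became -0.03 without siControl 6 h replicate 1 and -0.04 without siControl 0 h replicate 1. Solute carriers, the membrane transporters, had a median of -0.06 with 31.8% of 201 above 0, and 1 was called faster (SLC7A1, the cationic amino acid transporter, -0.25, adjusted p = 0.0429). snoRNA host genes (24 tested, 0 called) had a median of -0.08, with SNHG29 at -0.02 and SNHG14 at -0.04, and their median difference in level at 0 h was -0.16. Their shift of -0.08 became -0.04 without siControl 6 h replicate 2, -0.05 without siControl 0 h replicate 1 and -0.15 without siIGF2BP1 6 h replicate 1. Against the other knockdowns the medians of selenoproteins and solute carriers were both 0.02, of the other sign and close to the 0.01 of all genes, and that of snoRNA host genes was -0.05.

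Some large classes moved together by very little. Of 84 cytosolic ribosomal protein mRNAs, which are among the most stable in the cell, 11.9% lay above 0, with a median of -0.05 and 0 called, and RPL13A and RPLP0 were at -0.11 and -0.02. Of 49 mRNAs of secreted plasma proteins 14.3% lay above 0, with a median of -0.04 and ALB and AFP both at -0.04. The spread between libraries was as large as these shifts: the difference of the per-library medians was -0.04 with an SE of 0.0447 for ribosomal proteins and -0.05 with an SE of 0.0522 for plasma proteins. Against the other knockdowns the 2 medians were 0.01 each. Of 13 mitochondrially encoded mRNAs, 2 were called faster on the relative scale (MT-ND1 and MT-CO1, above), beside 0.289% of all genes. On the ERCC scale 1 of the 13 was called slower and 0 faster. Their median was -0.05 against siControl and 0.09, of the other sign, against the other knockdowns. The plot of lists shows each median beside that against the other knockdowns.

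**Figure D4:**
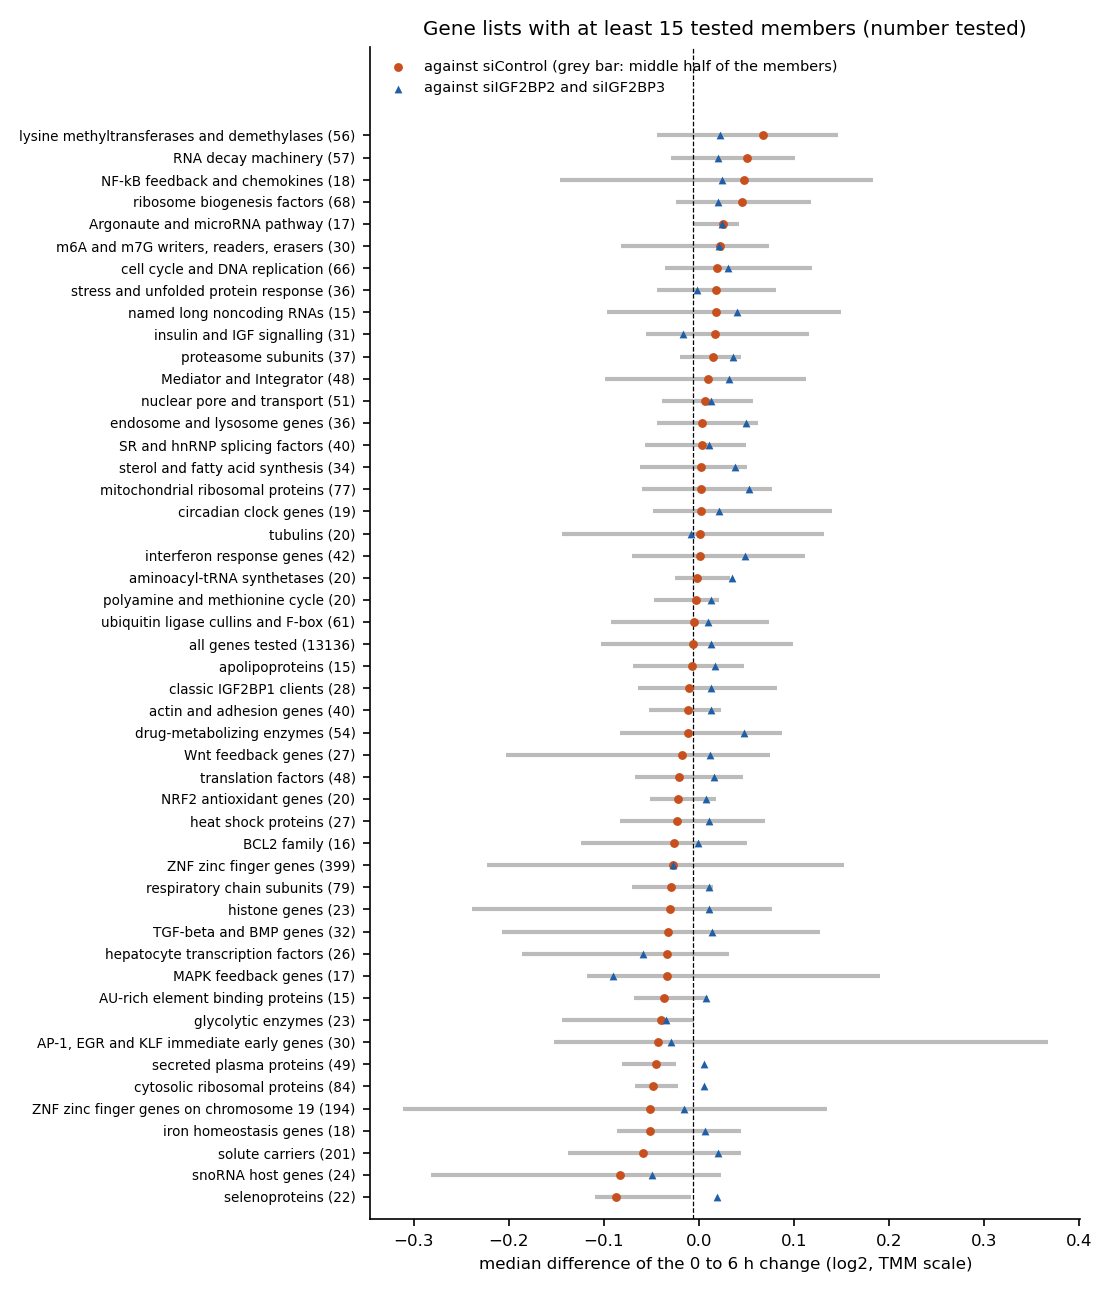
Median difference of the 0 to 6 h change (x axis, log2, TMM scale) for all but 1 of the gene lists with at least 15 tested members (y axis, number tested in parentheses), against siControl (orange points, with grey bars from the first to the third quartile of members) and against siIGF2BP2 and siIGF2BP3 (blue triangles). The dashed line marks the median of all genes, -0.01, and the orange points run from -0.09 for selenoproteins to 0.07 for lysine methyltransferases and demethylases.

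Called members of the other lists were few in number, but their share in some small lists was above the 0.502% of all genes. Since the lists were chosen with earlier results known, these shares are a description. Oncofetal liver genes (13 tested, median -0.03) held 2 called faster. Among hepatocyte transcription factors (26 tested, median -0.03) GATA4 was called, while HNF4A was at 0.00. Among cell cycle and replication genes (66 tested, median 0.02) the mitotic regulators CCNB1 (0.31) and PLK1 (0.24) were called slower and the cyclin CCND1 faster (-0.26). Among Wnt feedback genes (27 tested, median -0.02) FZD4 was called slower and DKK1, a secreted Wnt antagonist, faster (-0.34). HLF, a PAR bZIP factor (-0.24), the nuclear transport receptor XPO7 (-0.32) and the Mediator subunit MED1 (0.29) were the 1 called member of their lists.

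By biotype, 27 of the slower and 38 of the faster genes were protein-coding. Long noncoding RNAs (1011 tested) had a median of -0.04. Processed pseudogenes (328 tested, 0 called on the relative scale) had a median of 0.15 and 215 of them were above 0, with a difference of per-library medians of 0.19 and an SE of 0.213. On the ERCC scale 9 of them were called slower and 1 faster, beside 0.632% and 0.0228% of all genes. Their median against the other knockdowns was -0.04, of the other sign. Reads of processed pseudogenes cannot be told apart with certainty from those of their parent genes in these counts.

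Decay speed was taken from libraries outside the comparison. All genes were ranked by their 0 to 6 h change in siIGF2BP2 and siIGF2BP3 and divided into 10 bins of equal size. The median difference was 0.02 in bin 1, the fastest, and -0.02 in bin 10, the slowest. The highest and lowest medians were 0.02 in bin 2 and -0.03 in bin 9. Of the 38 faster genes, 18 were in the 2 fastest bins (47.4%, against 20.0% of all genes) and 9 in the 4 slowest. Of the 28 slower genes, 8 were in the 2 fastest bins (28.6%) and 2 in the 4 slowest (7.14%, against 40.0% of all genes).

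**Figure D5:**
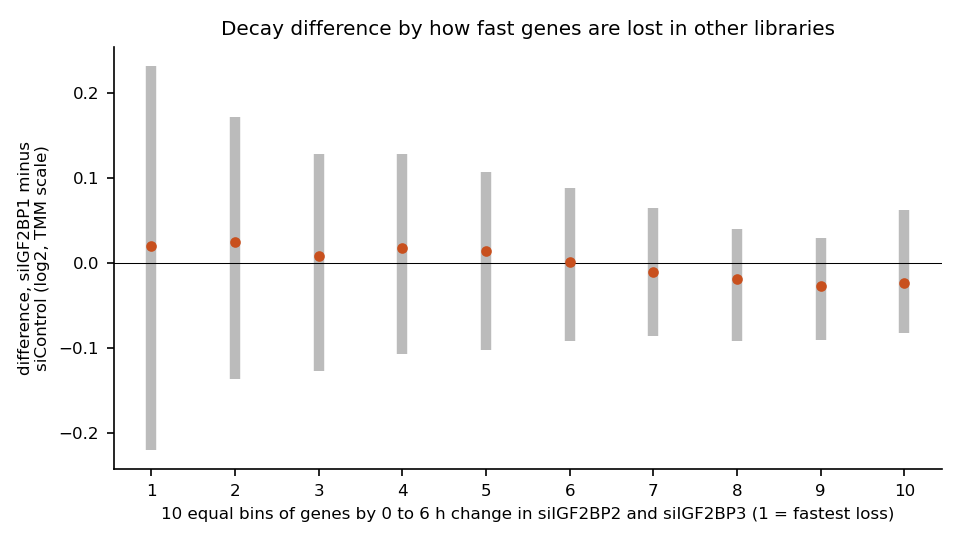
Difference of the 0 to 6 h change, siIGF2BP1 minus siControl (y axis, log2, TMM scale), for 10 equal bins of all genes ranked by their change in siIGF2BP2 and siIGF2BP3 (x axis, 1 is the fastest loss), with points for medians and bars from the first to the third quartile. Medians go from 0.02 in bin 1 to -0.02 in bin 10, and the bars narrow toward stable genes.

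Sequence features separated the medians of all genes little, while the called genes differed in GC content. Protein-coding genes in 4 equal bins of coding length had medians of -0.03 in the shortest and 0.01 in the longest bin. In 4 bins of coding GC content the median was 0.00 in the lowest and -0.02 in the highest. The 2 siControl 6 h libraries differed by GC content, with median deviations of 0.05 and -0.05 in the highest bin and -0.04 and 0.03 in the lowest, and the difference of per-library medians in the highest bin was -0.02 with an SE of 0.0532. Genes with 0, 1 to 2, 3 to 5 and 6 or more copies of AUUUA in the 3' UTR had medians of -0.01, -0.01, 0.00 and 0.00. For copies of GGAC, the core in which m6A is laid down, medians were 0.00, 0.00, -0.01 and -0.01 for 0, 1 to 2, 3 to 5 and 6 or more copies. The called genes themselves had a median 3' UTR of 810 bases (slower) and 1906 bases (faster), against 1324 bases for all. Their median coding GC content was 45.8% (slower) and 54.8% (faster), against 51.9% for all. The highest coding GC bin held 1 slower and 13 faster genes of 2847, and the lowest 11 slower and 10 faster of 2846. Over all genes 0.213% were called slower and 0.289% faster. Whether the GC difference of the called genes holds without either siControl 6 h library was not tested.

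The nonamer UUAUUUAUU, a classic destabilising AU-rich element, was searched on the sense strand of the 3' UTR of canonical transcripts (it holds an AUUUA). It occurred in 1068 tested genes (9.40% of those with a 3' UTR), in 4 of 36 faster genes and in 1 of 27 slower genes. Genes with and without it had the same median difference, -0.01. The windows are shown because they place the element in called genes of both directions, with the nonamer in capitals and 6 bases on either side, read 5′ to 3′ from the GENCODE transcripts of hg38. TLNRD1 (chromosome 15, 81005381 to 81005401), SOX9 (chromosome 17, 72125502 to 72125522), GDF15 (chromosome 19, 18389058 to 18389078) and HS6ST1 (chromosome 2, 128265627 to 128265647) were lost faster, and FZD4, with copies at chromosome 11, 86948371 to 86948391 and 86949457 to 86949477, more slowly. GDF15, a stress cytokine, and HS6ST1, a heparan sulfate sulfotransferase, both at -0.43, are named for this count after their values were seen. FZD4 is on the minus strand, so that its copies are listed by coordinate and the copy listed first lies further downstream in the mRNA.
TLNRD1: aaauuuUUAUUUAUUgaaugu
SOX9: cuaaaaUUAUUUAUUuuguaa
GDF15: agucugUUAUUUAUUauuaau
HS6ST1: aaagcuUUAUUUAUUuauagc
FZD4, first: guuauuUUAUUUAUUgagugc
FZD4, other copy: ugacauUUAUUUAUUaauuca
A match is a description of the sequence and not a measured binding site.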

How the data were processed

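RNA from HepG2 cells was sequenced in 24 libraries (12 groups of 2). According to the labels and methods, the authors trimmed reads with Trimmomatic 0.39, aligned them to hg38 with HISAT2 2.1.0 and counted them per GENCODE gene with HTSeq. The deposited values are raw read counts for 58721 gene rows, 92 ERCC rows and 5 summary rows, which name no gene, held 13.6% to 17.1% of each library and stayed out of all totals. The 45 rows for pseudoautosomal genes on Y were not used. Settings for multi-mapping reads are not given in the sources used here. PCR duplicates could not be removed.

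Groups were taken from the labels. Counts were fitted with edgeR 4.0.16 in R 4.3.3 (quasi-likelihood test, two-sided, 12 group means, 12 residual degrees of freedom, TMM) for the 13136 genes that reached 1 CPM in 2 or more libraries, and p-values were adjusted by Benjamini-Hochberg over these genes at a threshold of 0.05. The ERCC scale divides by the summed ERCC reads of each library, which correct for neither cell number nor RNA recovery. Each SE was computed from the estimate and the F value. Replicate libraries were never the same library deposited again: their counts differed beyond sampling noise (chi-square 3.41 to 10.2 per degree of freedom). The fits were tested on simulated counts. Alternatives included DESeq2 1.42.0. Class membership, transcripts and coordinates come from symbols and from a GENCODE annotation of hg38, which may differ from the release used by the authors. The per-library deviation of a class is the median over members of the log2 CPM less the gene's mean over the 4 libraries of that time. Python 3.11.15 was used for tables.

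The genes and lists were chosen with earlier results of these data known. Named genes were the IGF2BP family, the 10 largest differences in each direction among called genes at a mean of 5 CPM or more and the same sign on the ERCC scale less its median, the 2 most abundant and 2 most different members of each class described, genes followed by the study, and a list of published IGF2BP1 clients. Some genes that these rules chose are not reported here. The offset of 0.05 log2 that marks a class was chosen after the values were seen.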

Additional observations from a re-analysis of the deposited data

Results flagged for a closer look

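For these genes the difference between siIGF2BP1 and siControl in the change over 6 h of actinomycin D passed its own test. The relative log2 differences of the slower genes were 1.19 for TDRD7, 0.83 for SMIM15, 0.52 for RAB11FIP1, 0.48 for DIMT1, 0.46 for EXO1, 0.44 for FZD4, 0.42 for CSTF2, 0.41 for EGLN1, 0.39 for MRPL50 and 0.38 for NEAT1. Those of the faster genes were -0.89 for CENPB, -0.88 for GATA4, -0.74 for MSX1, -0.72 for TLNRD1, -0.64 for MID1IP1, -0.61 for UBE2G1, -0.47 for PPP6C, SPART and SOX9, and -0.41 for IGF2BP1, the target of the siRNA. With 2 libraries a group, which of the pair stands apart could not be tested. The siControl 6 h pair differed most by chi-square (10.2 per degree of freedom) but not by correlation.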

How the results depend on the processing

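The count of 66 genes over 0 to 6 h ranged from 30 to 91 when each library was left out. It was 30 without siControl 0 h replicate 1, 33 without siControl 0 h replicate 2, 39 and 30 without siIGF2BP1 0 h replicate 1 and 2, and 34 and 37 without siIGF2BP1 6 h replicate 1 and 2. DESeq2 gave 151 genes, and a fit with a slope on time gave 1 gene. The 86 genes of the ERCC scale, for which leaving out libraries was chosen after seeing the data, ranged from 11 to 1588: 11 without siControl 0 h replicate 1, 1588 without replicate 2, 57 without either siControl 3 h library, 253 and 46 without siControl 6 h replicate 1 and 2, 17 and 11 without siIGF2BP1 0 h replicate 1 and 2, and 26 and 25 without siIGF2BP1 6 h replicate 1 and 2. The 11 genes over 0 to 3 h ranged from 4 to 14 without single libraries (6 and 5 without siControl 0 h replicate 1 and 2, 4 and 7 without siControl 3 h replicate 1 and 2, 4 and 6 without siIGF2BP1 0 h replicate 1 and 2, and 4 without siIGF2BP1 3 h replicate 2), and became 38 with no count filter and 26 in DESeq2. The 0 genes over 3 to 6 h ranged from 0 to 11 (2 without siControl 3 h replicate 1, 1 and 11 without siControl 6 h replicate 1 and 2, 1 without siIGF2BP1 3 h replicate 1 and 3 without siIGF2BP1 6 h replicate 1), and became 9 on the ERCC scale, 1 by library size, 16 with no count filter, 1 with CPM of at least 5 in 2 libraries and 6 in DESeq2. The 88 genes against the other knockdowns ranged from 36 to 115 (40 without siIGF2BP1 0 h replicate 2, 50 and 36 without siIGF2BP1 6 h replicate 1 and 2), and became 14 on the ERCC scale and 157 in DESeq2. The causes were not tested. The IGF2BP1 level difference ranged from -2.51 to -2.49 without single libraries. The 8 lists past the offset became 6 with CPM of at least 5 in 2 libraries and 9 to 13 without single libraries, with 13 without siControl 6 h replicate 1 or 2, siIGF2BP1 0 h replicate 1 or siIGF2BP1 6 h replicate 2.

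The replicate number as a block shared by all groups gave 78 genes over 0 to 6 h and 4 over 3 to 6 h. As a block within each condition it gave 120 genes over 0 to 6 h, 20 over 0 to 3 h, 5 over 3 to 6 h and 141 against the other knockdowns. The correlation of replicate differences between groups was -0.04 to 0.11 over 15 pairs, and -0.02 to 0.05 between times of the same condition. Each transfected plate was re-seeded onto smaller plates, so that libraries of a condition may share a transfection. Low correlations cannot exclude this, and the main fit used no block.

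Of the 20 genes above, each under 21 alternatives, 344 of 420 values kept their call, 76 lost it and 0 turned sign. The slope on time lost 19 of the 20 and the ERCC scale 9. TDRD7 kept its call throughout. Of the 36 other named genes, IGF2 was called faster with no count filter (-0.17) and with 12 libraries only (-0.19). Low counts limit short-lived genes, whose 6 h levels are a few CPM.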
